A study of Mus musculus with 3 samples.

Results

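Cycling late neutrophil precursors were the cells of a CD133+ bone marrow sort that had left the *Mpo* stage, had not yet reached the *Retnlg* and *Mmp8* stage, and carried transcripts of cell division. They were chosen by measured values. A cell had to hold at least 200 genes, a mitochondrial share of at most 20%, and a total of unique molecular identifiers (UMIs, 1 per captured transcript) between the 5th and 95th percentiles of its own library. It also had to hold under 10 UMIs of *Mpo* and under 10 of *Retnlg* plus *Mmp8* per 10000 of the cell, fewer than 10 UMIs over 9 genes of other lineages, and at least 3 UMIs summed over *Mki67*, *Top2a*, *Cdk1*, *Ube2c* and *Birc5*. Of 29828 barcodes, 26838 passed the quality limits and 13237 were cycling late precursors: 5434 of 10869 barcodes in the control library, 3413 of 8362 in the young library and 4390 of 10597 in the old library. Another 2219 cells passed every limit except the last and served as the non-cycling comparison, 1166 in control, 699 in young and 354 in old. Non-cycling here means only fewer than 3 UMIs of those division genes, and some of these cells carried many DNA replication UMIs, as given below. The libraries held 108985799, 81434722 and 138030352 UMIs over all barcodes, and the cycling cells 54753385, 35435614 and 59673670. Here and throughout, values given in a row of 3 are those of control, young and old, in that order.

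The study compared CD133+ cells of young and aged C57BL/6 mice by droplet 3' single-cell RNA sequencing. It looked for possible mechanisms behind the ageing of a population it calls endothelial-like. CD133 is the surface protein encoded by *Prom1*, and the cells were sorted by fluorescence-activated cell sorting, from bone marrow by the sample labels, whereas the design text calls them intestinal. The control and young libraries carry an age label of 3 months, and the old library carries 27 months on its label but 18.5 months in the series' design text. That text gives 3 mice each for young and old, no treatment or genotype is given for any of them, and nothing in the labels says how control differs from young. Each condition is 1 library, so age, mice and library cannot be told apart, no test between conditions was possible, and all intervals are exact 95% intervals that cover counting error only.

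Neutrophils arise in the marrow through a short series of divisions. Promyelocytes make the azurophil granule proteins, such as myeloperoxidase (*Mpo*) and neutrophil elastase (*Elane*). The myelocytes that follow still divide while they fill specific granules with cathelicidin (*Camp*), neutrophilic granule protein (*Ngp*), lactoferrin (*Ltf*) and lipocalin 2 (*Lcn2*), and division ends before gelatinase granules and the mature receptors appear. Within a division, the MCM helicase and PCNA copy DNA in S phase, histone genes are switched on alongside, and cyclin B, CDK1 and the spindle genes peak at mitosis.

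The name was checked against markers, of which *Mki67* and *Top2a* are themselves part of the rule. *Nusap1*, a spindle microtubule protein that the rule did not use (chr2:119618298-119651244, plus strand, GRCm38), stood at 196 CPM (192 to 199) in the control library, 203 CPM (199 to 208) in the young library, 261 CPM (257 to 266) in the old library, where CPM is UMIs per 1000000 of the summed cells. Its levels in non-cycling cells were 15.7, 15.9 and 19.8 CPM in control, young and old. *Camp* (chr9:109847379-109849617, minus strand) stood at 64537 CPM (64469.9 to 64604) in the control library, 71714 CPM (71626 to 71802) in the young library, 45117 CPM (45064 to 45171) in the old library, against 69034, 70507 and 50097 CPM in non-cycling cells. *Ngp* was at 72119.5, 69716 and 65068 CPM, *Ltf* at 6607, 7164 and 6727 CPM and *Lcn2* at 10373, 8626 and 11121 CPM in cycling cells, so all of these granule markers were abundant in each library. Only 18 cycling cells, all in the young library, had under 100 UMIs per 10000 of *Camp*, *Ngp*, *Ltf* and *Lcn2* together. The floor for a count of 0 was set at 3 UMIs over the cycling cells of a library, or 0.0548, 0.0847 and 0.0503 CPM. Of the endothelial genes, *Cdh5*, VE-cadherin, was at 0.0365, 0.282 and 0 CPM and *Kdr*, a VEGF receptor, at 0.11, 0.0282 and 0.0168 CPM, near that floor except for *Cdh5* in young, while *Pecam1*, which leukocytes also carry, was at 1.22, 1.66 and 2.95 CPM. *Prom1* itself was at 46.1 CPM (44.3 to 47.95) in the control library, 37.96 CPM (35.95 to 40.04) in the young library, 43.1 CPM (41.4 to 44.8) in the old library.

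Summed marker levels of other lineages were highest in the young library in cycling cells, except those of endothelial genes. The limit on other-lineage genes removed 65, 610 and 70 of the quality cells in control, young and old (0.665%, 8.11% and 0.734%), and 80.3%, 40.9% and 77.6% of the cycling cells held no UMI of these 9 genes. They were *Ms4a6c*, *Csf1r*, *F13a1*, *Cd79a*, *Vpreb3*, *Prss34*, *Mcpt8*, *Gzma* and *Cd74*. The sums below include such genes, among them *F13a1*, *Cd74*, *Mcpt8* and *Prss34*, so they rest in part on values the rule limited. Summed marker levels in cycling cells of control, young and old were 6.72, 37.3 and 11.03 CPM for monocyte genes (led by *Irf8*, and by *F13a1* in old), 11.7, 45.7 and 9.28 for dendritic cell genes (led by *Cd74*, and by *H2-Ab1* in old), 15.1, 48.7 and 10.6 for basophil and mast cell genes (led by *Mcpt8*, and by *Prss34* in control), and 6.08, 26.3 and 2.43 for B progenitor genes (led by *Cd79b*). Erythroid genes, led by *Hbb-bs* or *Hba-a1*, summed to 235, 893 and 29.9 CPM in cycling cells and to 1056, 4481 and 6.41 CPM in non-cycling cells. The order in control turned among cells of 8000 to 12000 UMIs, where *Hbb-bs* stood at 166 CPM in cycling and 18.1 CPM in non-cycling cells. Cells with at least 50 haemoglobin UMIs per 10000 numbered 3, 15 and 3 among cycling cells (0.0552%, 0.439% and 0.0683%) and 2, 4 and 0 among non-cycling cells. NK and T cell genes summed to 246, 307 and 201 CPM, of which *Nkg7* made up 244, 265 and 200 CPM. Stem and progenitor genes summed to 7.47, 24.6 and 4.31 CPM, endothelial genes to 5.90, 7.45 and 7.54 (led by *Egfl7*), eosinophil genes to 0.913, 7.28 and 0.117, and mesenchymal genes to 0.877, 1.298 and 0.519. No UMI was found in control cycling cells for *Gzma*, *Cd3e*, *Mecom*, *Tek*, *Col1a2*, *Kitl* and *Adipoq*, in young for *Emcn*, and in old for *Siglech*, *Epx*, *Vpreb3*, *Pax5*, *Cd3e*, *Klrb1c*, *Cdh5*, *Tek*, *Cxcl12*, *Col1a2*, *Kitl* and *Adipoq*. Doublets were not removed beyond the upper UMI limit. Barcodes shared between libraries numbered 125 for control and young, 161 for control and old and 120 for young and old, and 26, 35 and 13 of these were cycling late precursors in both; whether any mark the same cell was not tested.

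Promoter sequences are shown for genes on which the cells were chosen and for comparable division genes. Genes of the late cell cycle are known to be repressed outside their phase by complexes that bind the CHR element, TTTGAA or TTTAAA, often beside CCAAT boxes, and replication genes by E2F sites, here TTTCCCGC or TTTGGCGC. The 150 bases before the annotated start are printed 5' to 3' on the gene's strand, from RefSeq on GRCm38.p6, with those letters in capitals on either strand; TTTAAA reads the same on both strands. *Ube2c* and *Cdk1* are rule genes of mitosis, *Top2a* is the rule's topoisomerase, *Plk1* is a mitotic kinase outside the rule, and *Mcm5* is a helicase subunit shown for contrast.
Ube2c, chr2:164769779-164769928, plus strand: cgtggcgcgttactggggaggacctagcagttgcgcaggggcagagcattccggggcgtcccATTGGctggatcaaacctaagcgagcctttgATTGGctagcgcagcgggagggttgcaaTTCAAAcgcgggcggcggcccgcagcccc
Top2a, chr11:99024190-99024339, minus strand: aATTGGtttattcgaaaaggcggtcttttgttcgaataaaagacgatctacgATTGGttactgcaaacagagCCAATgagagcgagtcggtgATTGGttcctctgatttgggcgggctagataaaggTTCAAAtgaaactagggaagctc
Cdk1, chr10:69352913-69353062, minus strand: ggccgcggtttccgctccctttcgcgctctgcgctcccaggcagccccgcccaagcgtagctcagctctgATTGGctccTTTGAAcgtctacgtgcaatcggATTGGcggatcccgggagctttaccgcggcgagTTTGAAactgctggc
Plk1, chr7:122159285-122159434, plus strand: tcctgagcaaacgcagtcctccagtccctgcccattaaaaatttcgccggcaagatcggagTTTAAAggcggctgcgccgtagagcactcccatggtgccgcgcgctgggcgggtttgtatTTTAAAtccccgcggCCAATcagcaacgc
Mcm5, chr8:75109359-75109508, plus strand: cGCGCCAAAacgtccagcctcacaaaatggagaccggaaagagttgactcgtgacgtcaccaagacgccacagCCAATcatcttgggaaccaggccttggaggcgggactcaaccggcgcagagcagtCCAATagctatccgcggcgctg

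CHR letters began 29 bases before the start in *Ube2c*, 23 in *Top2a*, 71 and 15 in *Cdk1* and 89 and 29 in *Plk1*, while the *Mcm5* window held an E2F match at 149 bases and no CHR letters. In RefSeq windows of 300 bases, from 250 before to 50 after the start, TTTGAA on either strand was present in 43 of 62 matched mitosis promoters (69.4%; 75 genes listed), in 5 of 41 replication promoters (12.2%; 50 listed) and in 4893 of 27025 promoters in all (18.1%). The E2F letters were present in 5 of the 62 (8.06%), 13 of the 41 (31.7%) and 441 of all promoters (1.63%), and CCAAT in 46 of the 62 (74.2%), 26 of the 41 (63.4%) and 37.9% of all. Among genes tested in cycling over non-cycling cells, E2F letters were in 4.23% of matched promoters, TTTGAA in 13.3% and CCAAT in 40.7%. A match is a run of letters, not a bound site.

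How many of the late precursors were counted as cycling depended on how deeply a cell was read. Of the eligible cells, 82.3% (81.4 to 83.2) in control, 83.0% (81.8 to 84.1) in young and 92.5% (91.8 to 93.3) in old carried at least 3 rule UMIs. Their median totals were 9192.5, 9744 and 13349.5 UMIs, so the library with the higher share was also the one read deepest. When every cell was thinned to 3000 UMIs, drawn at random, the shares were 59.2% (57.97 to 60.4), 60.9% (59.4 to 62.4) and 62.7% (61.3 to 64.1), and none was left out. At 5000 UMIs they were 75.04%, 76.6% and 78.0%, with 583, 338 and 0 cells left out. After thinning to 3000 UMIs the intervals of young overlapped those of both other libraries, while those of control and old did not overlap.

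Along the maturation path the late precursors were the stage with the highest thinned share in each library. The other stages were set by the same genes, as cells with *Mpo* at 100 or more per 10000, with *Mpo* from 10 to 100, with *Retnlg* plus *Mmp8* from 10 to 100, and with *Retnlg* plus *Mmp8* at 100 or more. In that order, with the late precursors in the middle, the thinned shares were 30.8%, 49.1%, 59.2%, 18.1% and 10.0% in control, 32.2%, 54.4%, 60.9%, 24.8% and 10.3% in young, and 34.9%, 56.1%, 62.7%, 25.7% and 5.25% in old. Unthinned shares placed the *Mpo* 10 to 100 stage above the late precursors, at 91.2% against 82.3% in control, 91.5% against 83.0% in young and 98.9% against 92.5% in old. The *Mpo* 100 or more stage, unthinned, was at 81.3%, 85.2% and 92.8%. It thus stood above the late precursors in young and old, with overlapping intervals, and below them in control. Neutrophils of the most mature stage are known as largely past division, so their share is given for comparison, with median totals of 4382, 3978.5 and 6883.5 UMIs. Whether the cells counted there were dividing, doublets or background was not tested. Summed over all cells of a stage, the 5 rule genes stood at 1506, 1548 and 1509 CPM in late precursors and at 417, 369 and 302 CPM in the most mature stage.

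**Figure D1:**
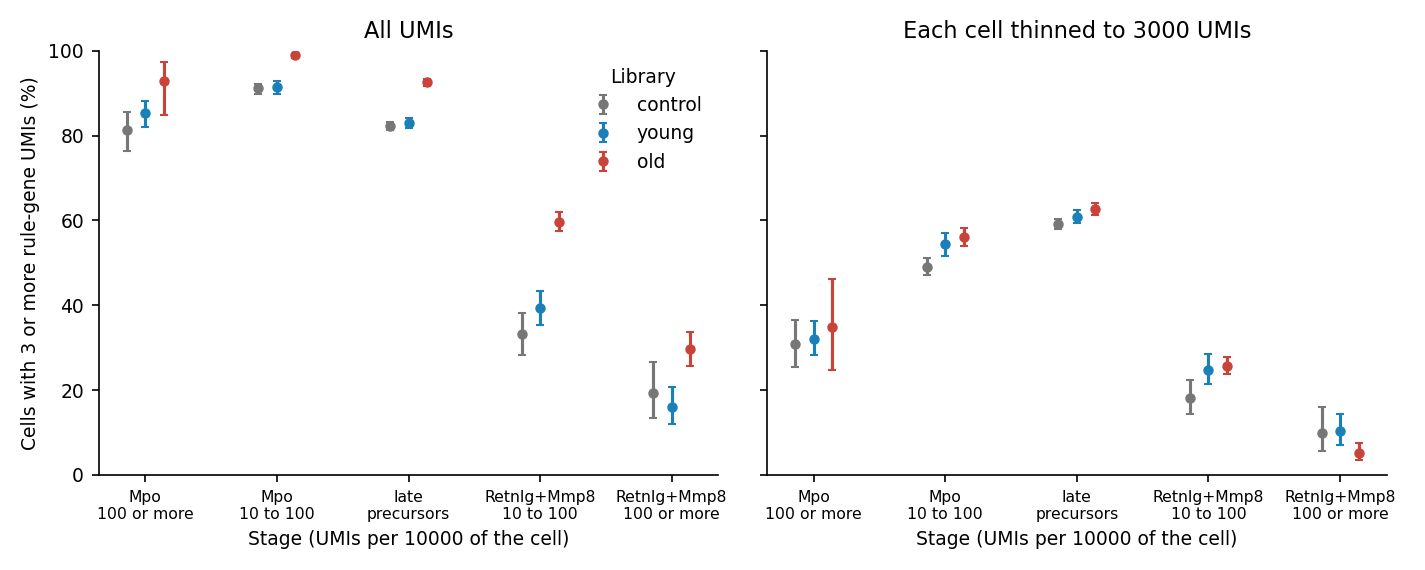
Share of cells with 3 or more rule-gene UMIs (%) at 5 stages, as deposited and after thinning each cell to 3000 UMIs, with 1 symbol per library and exact 95% counting intervals. After thinning the late precursors lie between 59.2% and 62.7%, above every other stage in each library.

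Within the late precursors the share was low where lactoferrin was most abundant. Over *Ltf* at under 10, 10 to 30, 30 to 60, 60 to 100 and at least 100 UMIs per 10000, the thinned share was 64.1%, 64.3%, 66.1%, 58.8% and 46.6% in control, 52.5%, 62.7%, 67.4%, 64.3% and 51.01% in young, and 64.5%, 69.5%, 65.2%, 66.4% and 50% in old. The bin with most *Ltf* had the lowest share in each library, the first bin of young was nearly as low, and the order of the others differed among libraries. *Elane* in the cycling cells of control stood at 7793 CPM in the first of these bins and at 959.7 CPM in the last.

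Levels of division genes were also set side by side over the 5 stages, as a description with no test. Among cells with at least 3 rule UMIs, mitosis genes in control summed to 4367, 5015, 6754, 4709 and 3649.9 CPM over the 5 stages, while DNA replication genes summed to 4418, 4576, 3322, 2170.4 and 1863 CPM. All of these cells were chosen by at least 3 UMIs of the 5 rule genes, and the rule genes themselves took a course like that of the mitosis genes, at 714, 1031, 1689, 1259.9 and 932 CPM, so the higher mitosis sum of late precursors follows in part from the choice of cells. The stages also differed in depth, with medians of 11527, 12318, 9192.5, 5283 and 4382 UMIs over all their cells in control, and a fixed limit of 3 UMIs is looser in deeper cells. The part of depth in these sums was not tested. Mitosis sums in the late precursors of control, young and old were 6754, 6663 and 6954 CPM and replication sums 3322, 3574 and 3521 CPM. Ribosome biogenesis genes, which growing cells use, summed to 5397, 3768, 819.6, 717 and 470.4 CPM over the stages in control.

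D-type cyclins and their partners differed by stage as well. *Ccnd2* stood at 111, 50.3, 3.196, 4.11 and 4.52 CPM over the 5 stages of control, and its kinase partners *Cdk4* at 273, 192, 48.2, 36.995 and 18.1 CPM and *Cdk6* at 205, 138, 25.99, 22.6 and 9.05 CPM. *Ccnd3*, another D-type cyclin, stood at 215, 375, 567, 490.2 and 516 CPM and the CDK4/6 inhibitor gene *Cdkn2c* at 17.9, 32.6, 75.3, 50.4 and 45.2 CPM. *Ccnd3* and *Cdkn2c* were thus at their highest in the late precursors of control, where *Ccnd2* and *Cdk6* stood below both *Mpo* stages. In young and old *Cdkn2c* was highest there too, while *Ccnd3* stood at 209, 366, 466, 449 and 480.5 CPM in young and 230.3, 455, 540.4, 517 and 561 CPM in old, highest in the last stage, which held 47 and 152 cells and rests on 150 and 727 *Ccnd3* UMIs. In control, specific granule genes summed to 23379, 66584, 175142, 161148 and 135502 CPM and azurophil genes to 62898, 36794, 17190.2, 19439 and 17503 CPM. Lysozyme, *Lyz2*, made up 12824 CPM of the azurophil sum in the late precursors, while *Elane* stood at 27569, 17430, 2009, 1955 and 1230 CPM over the stages. *Cebpe*, the factor needed for specific granules, stood at 585, 833, 1071, 834 and 651 CPM. These stages were cut on *Mpo*, *Retnlg* and *Mmp8*, so the granule gradients follow in part from how the stages were set.

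**Figure D2:**
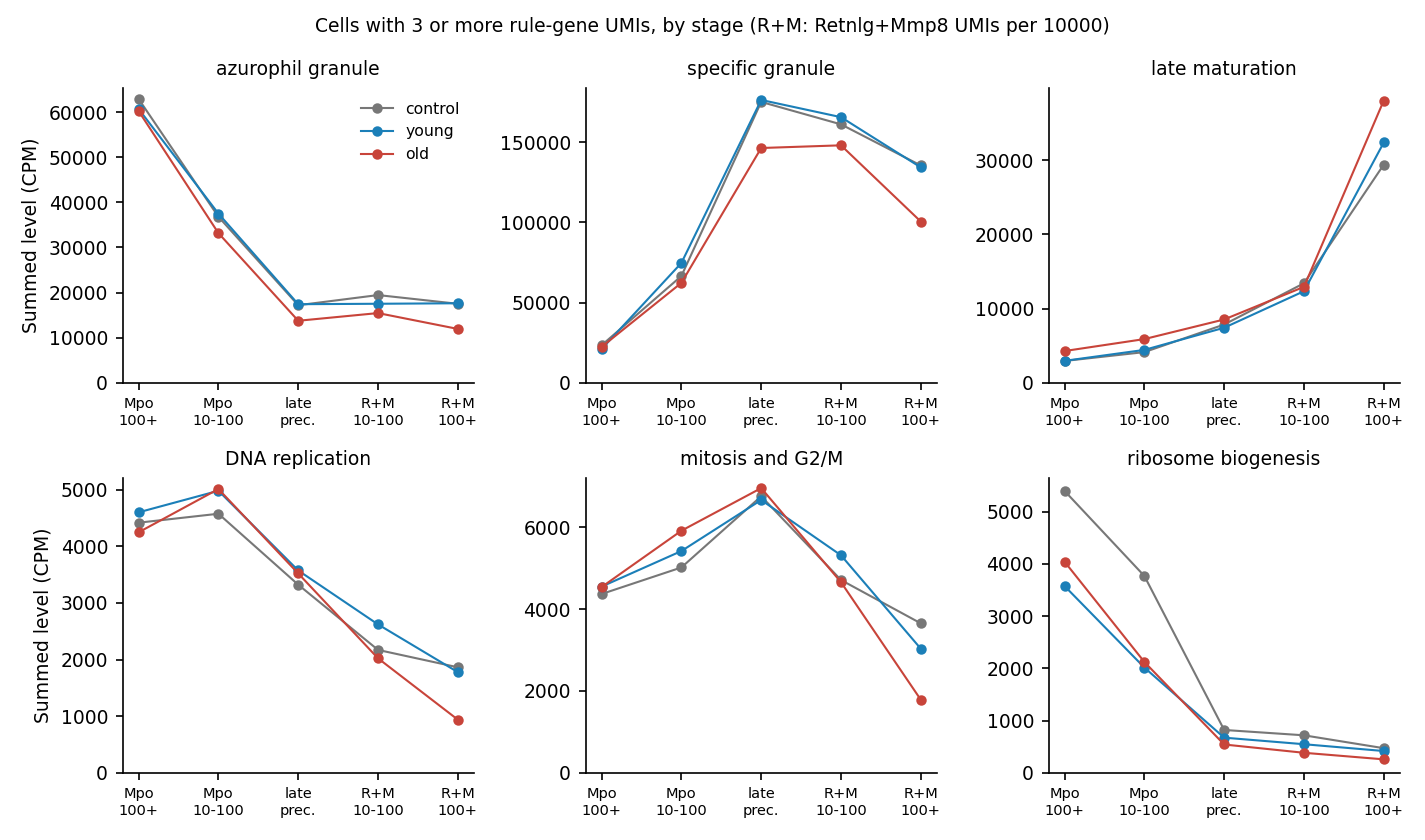
Summed CPM of gene lists in cells with 3 or more rule UMIs at the same 5 stages, with 1 line per library and linear axes from 0. In control the mitosis sum is 6754 CPM in late precursors, where it follows in part from the choice of cells on rule genes, and the replication sum is 3322 CPM, below both *Mpo* stages.

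Cycling and non-cycling late precursors differed in mitosis, histone and chromatin genes, among others. The rule split these cells on division genes, so the contrast is a description and carries no test. Of 4684 genes with at least 10 CPM in either group of every library, 326 were more than 2 times higher in the cycling cells of all 3 libraries (6.96%) and 23 more than 2 times lower (0.491%). Genes such as *Foxm1*, *Pole2* and *Kif11* reached 10 CPM in cycling cells alone, so the 326 and the 6.96% follow in part from that limit. The limit equally admitted genes that reached it in non-cycling cells alone. The cycling cells were also deeper, with medians of 9882, 10424 and 13587 UMIs against 6187.5, 6033 and 10055. Among cells of 8000 to 12000 UMIs, 192 genes were past 2 times higher, 183 of them shared with the 326, and 0 past 2 times lower. That range, called like depth below, held 2411, 1699 and 1119 cycling and 211, 131 and 214 non-cycling cells. The median gene stood 0.29, 0.23 and 0.30 higher in cycling cells on the log2 scale.

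Of 69 measured mitosis genes 67 were past 2 times higher in every library, beside 6.96% of all genes, with medians of 2.34, 2.61 and 2.61 log2 in control, young and old. Members such as *Prc1*, *Kif11* and *Casc5* reached 10 CPM in cycling cells alone, so this count follows in part from the limit and is no support. *Prc1*, which bundles spindle microtubules, was at 108, 110.2 and 121 CPM in cycling and 8.37, 8.83 and 7.53 CPM in non-cycling cells. Its log2 ratios were 3.69 (3.33 to 4.07) in control, 3.64 (3.19 to 4.14) in young, 4.01 (3.46 to 4.61) in old. *Plk1* had log2 ratios of 2.85, 2.98 and 2.73, the kinesin *Kif11* 2.76, 3.21 and 3.695, the kinetochore genes *Spc25* 3.07, 3.41 and 2.79 and *Casc5* 2.76, 3.21 and 3.82, and the kinases *Aurkb* 2.84, 2.84 and 2.65 and *Pbk* 2.75, 2.99 and 2.88. The securin gene *Pttg1* was the member nearest to no difference, at 0.05, -0.11 and 0.32.

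Replication-dependent histones, made while DNA is copied, were past 2 times in 13 of 16 measured members, beside 6.96% of all genes, with medians of 1.98, 2.19 and 2.47. Members such as *Hist1h3b* reached 10 CPM in cycling cells alone, so this count follows in part from the limit and is no support. *Hist1h2ap* stood at 481 CPM (476 to 487) in the control library, 587 CPM (579 to 595) in the young library, 480.0 CPM (474 to 486) in the old library. In non-cycling cells it stood at 30.4, 29.7 and 24.3 CPM. Histone genes are near-identical copies and the assay primes on poly(A), which most histone transcripts lack, so counts of single members are uncertain. Chromatin and tubulin genes were past 2 times in 18 of 22, beside the same 6.96%, among them *H2afx*, the histone variant marked at DNA breaks, at 2.69, 2.85 and 2.63. *Tubg1*, of this list, reached 10 CPM in cycling cells alone, so this count is no support either.

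DNA replication genes differed less, at 16 of 42 past 2 times beside 6.96% of all genes, and medians of 0.98, 0.91 and 1.44. Members such as *Pole2* reached 10 CPM in cycling cells alone, so this count follows in part from the limit and is no support. Within 8000 to 12000 UMIs these medians were 0.48, 0.20 and 1.49, against 2.21, 2.14 and 2.38 for mitosis genes and 0.21, 0.20 and 0.24 for all genes. *Rrm2*, a subunit of ribonucleotide reductase, was at 380.5, 369.8 and 486 CPM against 117, 100.3 and 112, and *Cdc6*, which loads the helicase, at 16.2, 15.04 and 14.01 against 14.5, 16.5 and 8.09 CPM. Among regulators, 6 of 12 genes of cell cycle transcription and 3 of 9 G1 cyclins, CDKs and inhibitors were past 2 times, beside 6.96% of all genes. *Foxm1*, of the first list, reached 10 CPM in cycling cells alone, so these counts are no support either. Medians of the first list were 1.07, 1.26 and 1.204, and 0.70, 0.55 and 1.42 at like depth, and those of the second 0.89, 0.68 and 0.92, and 0.79, 0.44 and 0.68. The forkhead factor *Foxm1* was at 2.396, 3.11 and 2.14 and *E2f1* at 0.38, 0.33 and 0.53. The inhibitor *Cdkn2c* was at 75.3, 80.8 and 97.3 CPM in cycling and 15.2, 13.4 and 16.2 CPM in non-cycling cells, with log2 ratios of 2.31 (2.04 to 2.59) in control, 2.596 (2.22 to 2.99) in young, 2.59 (2.22 to 2.99) in old. *Cdkn1a*, the p53-responsive inhibitor p21, was at 8.68, 6.41 and 10.4 CPM against 1.99, 1.81 and 3.63.

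Granule genes are what these cells make at this stage. None of 14 specific granule genes and none of 8 azurophil genes was past 2 times in every library, beside 6.96% higher and 0.491% lower of all genes, and nothing was read from lists this short. The specific granule medians were -0.08, 0.01 and -0.12. *Ltf* stood at 8749, 9314 and 10835 CPM in non-cycling cells and *Fcnb*, a ficolin of immature neutrophils, at 1506, 1865 and 1143 CPM in cycling against 893, 1022 and 709 CPM. The azurophil medians, over a list that includes the rule gene *Mpo*, were 0.54, 0.54 and 0.85, and 0.21, 0.06 and 0.53 at like depth beside 0.21, 0.20 and 0.24 for all genes. The list's summed level was lower in cycling cells, at 17190.2, 17412 and 13743 CPM against 25834, 23401 and 20936 CPM. That sum is mostly lysozyme, *Lyz2*, at 12824, 14137 and 9841 CPM in cycling and 22844, 21224 and 18694 CPM in non-cycling cells, while *Elane* was at 2009, 1576 and 1526 against 1314, 984 and 831 CPM. *S100a8* and *S100a9*, the abundant calcium-binding proteins of neutrophils, had ratios of -0.29, -0.22 and -0.302 and -0.32, -0.23 and -0.33. Of 10 myeloid transcription factors none passed 2 times in every library, with medians of 0.53, 0.41 and 0.53. The same was true of 5 p53 targets, at 0.13, 0.25 and 0.03, 6 sterol synthesis genes, at 0.12, -0.04 and -0.14, 6 interferon-stimulated genes, at -0.08, -0.397 and 0.01, 11 ribosome biogenesis genes, at 0.58, 0.28 and 0.72, and 14 glycolysis genes, at 0.14, 0.05 and -0.02. At like depth the interferon medians were -0.10, 0.11 and 0.14, so that of young changed sign, and the ribosome biogenesis medians were 0.25, 0.17 and 0.63. *Ceacam1*, an adhesion molecule, was at 138, 133 and 137 CPM in cycling and 158, 142 and 179 CPM in non-cycling cells, and *Ccnd1*, cyclin D1, at 0.384, 1.27 and 0.117 and 0.133, 7.93 and 0.279 CPM.

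The genes past 2 times lower included markers of later neutrophils. *Mmp9*, gelatinase, was at 33.04, 33.98 and 43.5 CPM in cycling against 121, 144 and 133 CPM in non-cycling cells, and *Ly6g*, the neutrophil surface antigen, at 123, 209 and 80.3 against 372, 604 and 229 CPM. *S100a6* was at 165, 253 and 1276 against 485, 808 and 3423 CPM. Their log2 ratios were -1.88, -2.08 and -1.61 for *Mmp9*, -1.597, -1.53 and -1.51 for *Ly6g* and -1.56, -1.68 and -1.42 for *S100a6*. At like depth they were -0.69, -0.02 and -1.29, -0.77, -0.09 and -0.91 and -0.91, -1.01 and -1.004, so *Mmp9* and *Ly6g* stood near 0 in the young library. *Ceacam10*, *Ltb*, *Fpr2*, *St3gal5*, *Plbd1*, *Capg* and *Slfn4* completed the 10 lowest of the named genes. The late maturation list had medians of -0.52, -0.500 and -0.39, and -0.16, -0.12 and -0.18 at like depth.

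**Figure D3:**
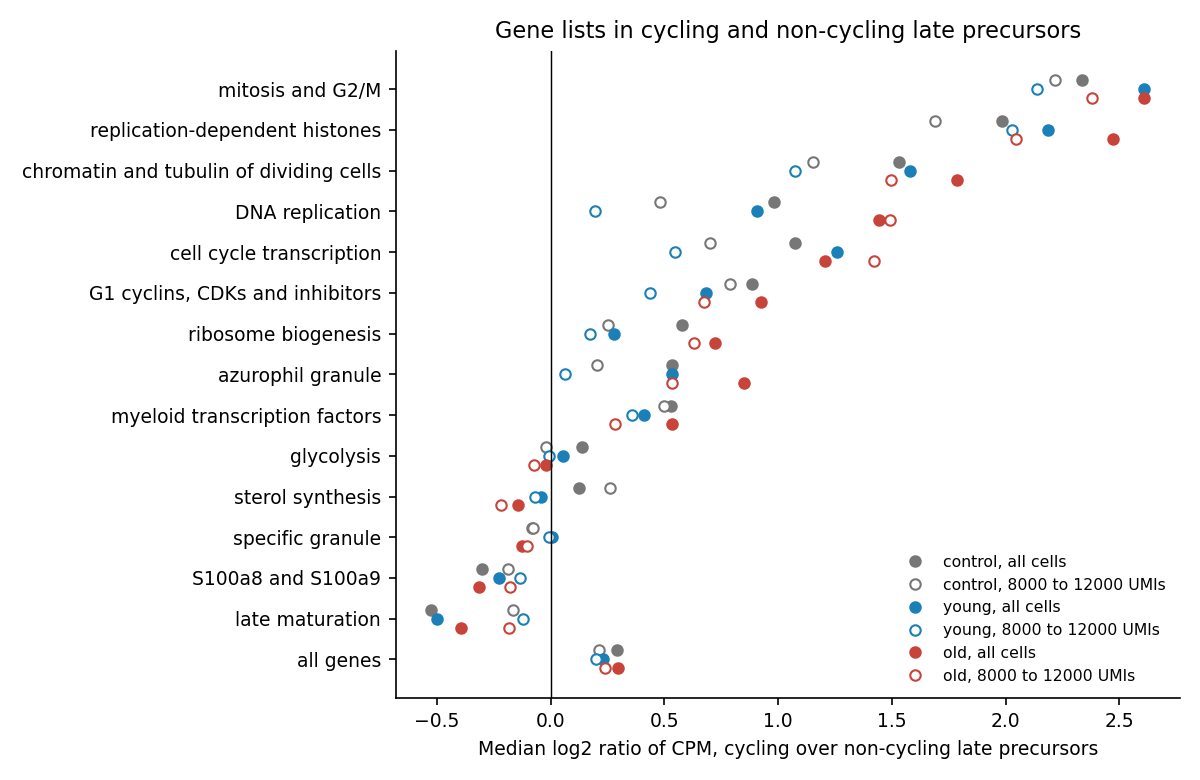
Median log2 ratio of CPM, cycling over non-cycling late precursors, for each gene list, with separate symbols for the 3 libraries and for all cells or cells of 8000 to 12000 UMIs. Mitosis genes lie at 2.34 to 2.61 in all cells, specific granule genes near 0 and late maturation genes below 0.

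Cycling cells were not uniform. They were ordered by rule UMIs per 10000 of the cell, at under 5, 5 to 10, 10 to 20 and 20 to 40, with 553, 1213, 1634 and 1993 cells in control. Mitosis genes summed to 2822, 4019, 6822 and 9168 CPM over these bins in control, 2579.8, 3863, 6759 and 8707 in young and 2622, 4409, 7263 and 9624 in old, which follows from the choice of rule genes. DNA replication genes took another course, at 3522, 3859.8, 3931 and 2528 CPM in control, 3906, 4096, 4272 and 2707 in young and 2692, 4106, 4148 and 2924 in old, lower at 20 to 40 than at 10 to 20 in each library.

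Single genes showed the same contrast in the last bin, though *Mcm5*, *Pcna* and *Ccne2* in control were highest in earlier bins than the replication sum. In control the helicase gene *Mcm5* stood at 100.2, 108, 71.3 and 38.6 CPM, the sliding clamp *Pcna* at 166, 195, 165 and 57.5 and the G1/S cyclin *Ccne2* at 123, 121, 70.04 and 15.4. The mitotic cyclin *Ccnb1* stood at 39.4, 61.1, 105 and 184 and the APC activator *Cdc20* at 67.8, 120.5, 139.6 and 238. *Hist1h2ap* was at 98.6, 237, 673 and 568 CPM. *Mcm5*, *Pcna* and *Ccne2* were thus lowest, and *Ccnb1* and *Cdc20* highest, at 20 to 40 per 10000, in young and old as well. Azurophil genes summed to 22657, 20698, 17946 and 13360.5 CPM and *Cebpe* to 932, 931, 1024 and 1222. Above 40 per 10000 there were 41, 31 and 8 cells, where erythroid genes summed to 31782, 52969 and 0 CPM, so that bin was left out of these comparisons.

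**Figure D4:**
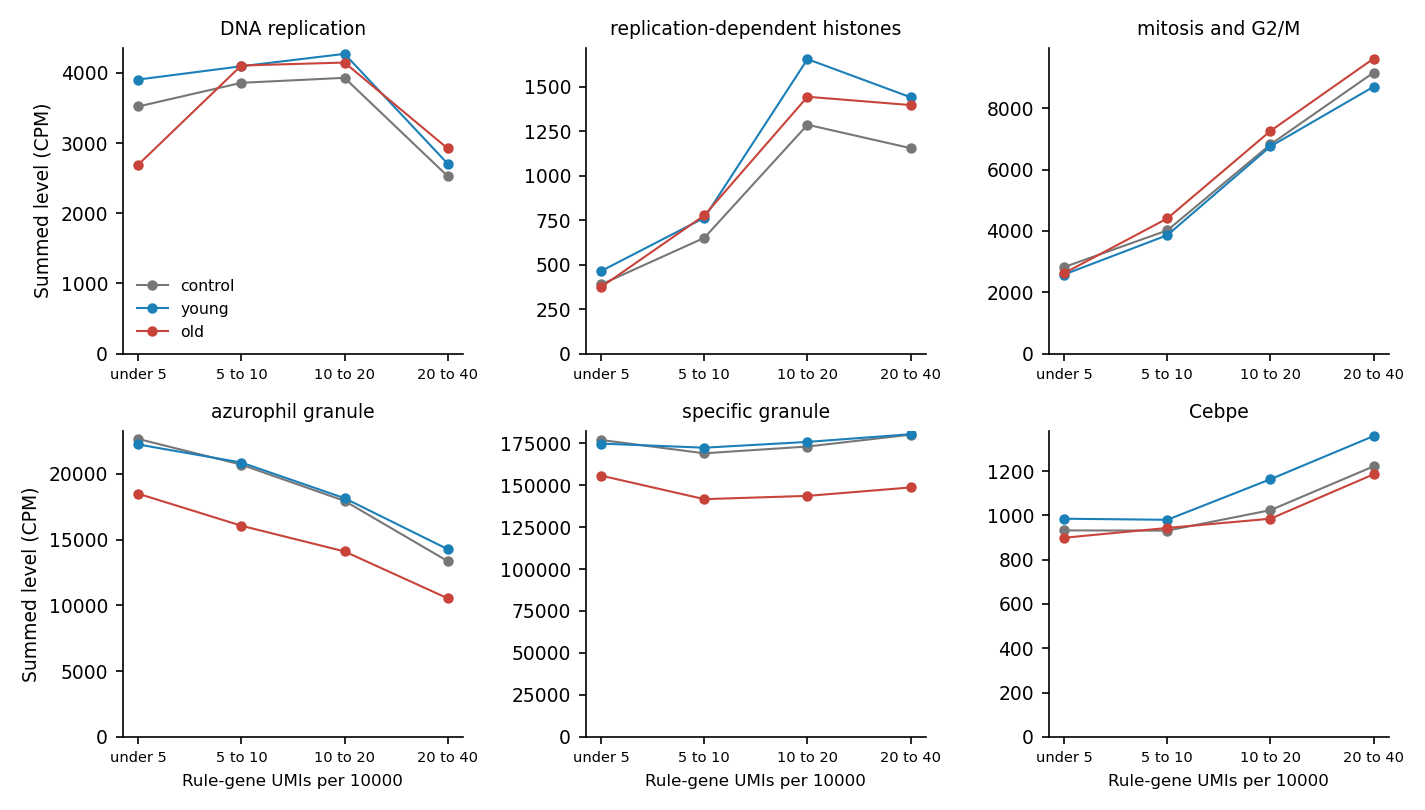
Summed CPM of gene lists and CPM of *Cebpe* in cycling late precursors, over 4 bins of rule-gene UMIs per 10000 of the cell, with 1 line per library and linear axes from 0. Replication genes in control go from 3931 CPM at 10 to 20 per 10000 to 2528 CPM at 20 to 40, while mitosis genes go from 6822 to 9168 CPM.

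Cells lay close to each limit on both sides. There were 364, 199 and 180 cells at exactly 3 rule UMIs and 437, 223 and 177 at exactly 2, and the cycling cells had medians of 14, 16 and 19 rule UMIs. *Mpo* lay between 5 and 10 per 10000 in 1613, 788 and 830 cycling cells, and 335, 163 and 344 cells with at least 3 rule UMIs lay between 10 and 15. *Retnlg* plus *Mmp8* lay between 5 and 10 in 445, 1207 and 2412 cycling cells, and 44, 122 and 536 lay between 10 and 15. Other-lineage UMIs lay between 5 and 9 in 7, 26 and 9 cycling cells, and between 10 and 14 in 3, 33 and 5 cells outside. All 5 rule genes had a UMI in 47.8%, 47.8% and 55.6% of cycling cells.

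Between libraries, the lists of division genes had medians from -0.43 to 0.29 within cycling cells. Each cell had to carry at least 3 UMIs of 5 division genes, so alike levels of mitosis genes follow in part from the choice of cells. In old over young, 309 of 5306 genes were more than 1.5 times higher (5.82%) and 420 lower (7.92%), and in old over control 284 of 5169 were higher (5.49%) and 260 lower (5.03%). In control over young, 108 of 5233 were higher (2.06%) and 195 lower (3.73%). The balance of higher and lower depended on the scaling. As unscaled UMIs per cell 1504 were higher and 142 lower in old over young, and 1694 and 32 in old over control. With CPM taken outside granule and *S100a8*/*S100a9* genes, 1128 and 722 were lower in those comparisons. These comparisons share libraries and are given side by side. None of 43 DNA replication genes passed 1.5 times in any of the 3, and their medians were -0.04 in old over young and 0.10 in old over control. Of 72 mitosis genes 2 were higher and 1 lower in old over young, and 1 higher in old over control, with medians of -0.01 and 0.07. At like depth the medians were -0.43 and -0.22 for replication and -0.19 and -0.19 for mitosis, against -0.09 and -0.10 for all genes. Cycling cells had first quartiles of 7696, 8402 and 11630 UMIs and medians of 9882, 10424 and 13587. The range of 8000 to 12000 UMIs thus took only cells of old below their median, 1119 of 4390. The part of that cut in these medians was not tested. Histone medians were -0.20 in old over young, 0.29 in old over control and -0.43 in control over young, and -0.54, -0.10 and -0.46 at like depth. *Cdc25b*, a phosphatase that activates CDK1, was at 10.6, 8.01 and 16.2 CPM and *Ube2s*, which extends ubiquitin chains in mitosis, at 761, 379 and 557 CPM. *Cdk6* was at 25.99, 32.7 and 12.8 CPM, with log2 ratios of -1.35 (-1.49 to -1.22) in old over young and -1.02 (-1.15 to -0.89) in old over control.

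The summed levels of sterol synthesis and late maturation genes were highest in the old cycling cells. All 23 listed sterol genes summed to 386, 264 and 672 CPM, and to 403, 254 and 641 CPM in cells of 8000 to 12000 UMIs. Only 8 of them reached 10 CPM in control or young against 14 once old was included, so genes that passed through the old library alone had to differ and no count of passing genes is given. *Fdps*, the farnesyl diphosphate synthase of that pathway (chr3:89093588-89101959, minus strand), stood at 142 CPM (139 to 146) in the control library, 66.1 CPM (63.5 to 68.9) in the young library, 309 CPM (305 to 314) in the old library. Its log2 ratios were 2.23 (2.16 to 2.29) in old over young and 1.12 (1.08 to 1.16) in old over control. In non-cycling cells it was at 106, 47.8 and 312 CPM. *Tspo*, an outer mitochondrial membrane protein, was at 1229.5, 740.4 and 1748 CPM and *Anxa1*, annexin A1, at 3924, 3616 and 6119.9 CPM. Control and young carry the same age label but differed as well. *Fdps* was at 142 CPM in control against 66.1 in young, and *Tspo* at 1229.5 against 740.4. All 20 late maturation genes summed to 7849.6, 7417 and 8531 CPM, and to 8049.8, 7705 and 9222 CPM at like depth. Over all cycling cells 13 of them reached 10 CPM in control or young and 16 with old included. That list holds *Retnlg* and *Mmp8*, which the rule limits, and more old cycling cells lay near that limit. *Cxcr2*, the chemokine receptor of mature neutrophils, was at 39.9, 20.5 and 65.6 CPM. Glycolysis genes had medians of 0.30 and 0.43, and 0.21 and 0.22 at like depth, with 6 and 2 of 15 past 1.5 times higher beside 5.82% and 5.49% of all genes. Ribosome biogenesis genes had medians of -0.26 and -0.51, and -0.59 and -0.81 at like depth, with 1 and 7 of 15 lower beside 7.92% and 5.03%, so the first of these counts was near the share over all genes. As unscaled UMIs per cell the ribosome biogenesis median of old over young was 0.12, where the median over all genes was 0.38.

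The single genes furthest higher in old over both others included *S100a6* at 165, 253 and 1276 CPM, *BC100530* at 15.8, 13.9 and 301 CPM and *Stfa1* at 48.7, 37.96 and 340.4 CPM; the last pair are genes of the stefin A cluster. *Ifitm1*, an interferon-inducible membrane protein, was at 4.803, 13.3 and 207 CPM, *Wfdc17* at 10.3, 10.2 and 129.7 CPM and *Ceacam10* at 28.97, 27.8 and 83.1 CPM. *Stfa2l1* was at 2.12, 4.29 and 52.8 CPM, *Gm5483* at 2.43, 8.01 and 52.8 and *Tpd52* at 15.6, 11.8 and 61.1. Stefin genes are close copies, and counts may be split between them. *H1f0*, the linker histone H1.0 that accumulates as cells stop dividing, was at 21.1 CPM (19.9 to 22.3) in the control library, 24.7 CPM (23.1 to 26.4) in the young library, 119 CPM (116 to 121) in the old library. It was also higher in cycling than in non-cycling cells of each library, at 1.502, 1.24 and 1.63 log2.

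The named genes lowest in old included haemoglobin and interferon-stimulated genes, which were highest in young. *Hba-a2*, *Hbb-bt*, *Isg15*, *Ifi27l2a* and *Bst2* reached the 50 CPM asked of named genes in young alone, where they were high. Nothing is therefore read from how many such genes were named. *Hbb-bs* was at 85.5, 309 and 7.51 CPM and *Hba-a1* at 78.7, 304 and 9.84 CPM, with *Hba-a2* and *Hbb-bt* alike. Without cells rich in haemoglobin or poor in granule transcripts, *Hbb-bs* had log2 ratios of -3.94 in old over young and -2.08 in old over control. Both were smaller in size than over all cycling cells, and the part of such cells in the difference was not tested. All 34 interferon-stimulated genes summed to 1284, 3829 and 2233 CPM. Of these 25 reached 10 CPM in a comparison with young but 8 in control or old, so most passed through young alone, where they were high, and their count and median are not read as support. *Ifitm3*, which made up most of the sum in each library, was at 1038, 1961 and 1963 CPM and *Ly6e* at 45.8, 213 and 88.3 CPM, both higher in old than in control. *Isg15* was at 7.03, 138 and 1.86 CPM, *Ifi27l2a* at 10.7, 454 and 3.18 CPM and *Bst2* at 9.79, 98.5 and 4.06 CPM. The young library also had the highest marker sums of the other lineages except endothelial, and the part of these in the result was not tested. *Stk39*, a kinase, was at 73.2, 76.6 and 26.4 CPM and *Hspe1*, the mitochondrial co-chaperonin, at 50.3, 41.7 and 19.7 CPM, lower in old than in both others. *Crip1* was at 35.6, 127 and 12.6 CPM.

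**Figure D5:**
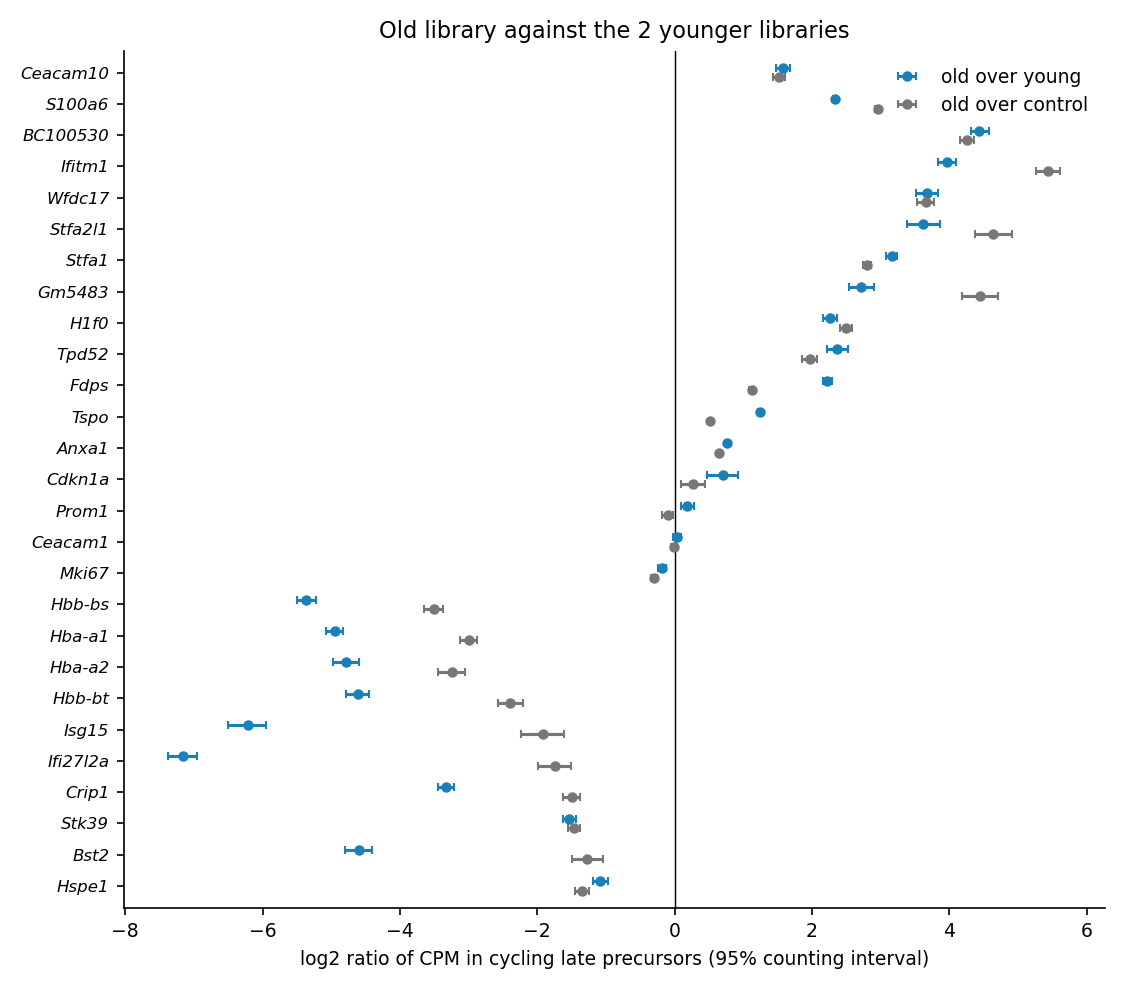
Log2 ratio of CPM in cycling late precursors for the named genes highest and lowest in the old library, with old over young and old over control as separate symbols and exact 95% counting intervals. *S100a6* lies at 2.34 and 2.95, and *Hbb-bs* at -5.36 and -3.51.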

How the data were processed

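Per the submitters' notes, the authors processed 3' v2 reads with Cell Ranger 2.1.0 and STAR on mm10 and deposited UMI counts, 1 gene by cell matrix of 27998 genes for each of 3 libraries, with no cell annotation. The methods name no doublet removal and none was run here. The cells and the 28 gene lists were chosen with earlier results of these data known. UMI counts were summed per library and group and scaled to counts per 1000000 (CPM). Log2 ratios have conditional binomial intervals, shares Clopper-Pearson intervals and levels Poisson intervals, all exact at 95%. With 1 library per condition genes were counted by size, 2 times for cycling over non-cycling cells and 1.5 times between libraries, at a minimum of 10 CPM, and no test was run. Named genes were the rule genes, markers, genes the study follows, the 10 highest and 10 lowest per contrast at 50 CPM or more, and the extremes and most abundant members of each list; *Ccnd2*, *Cdk4*, *Ccne2*, *Ccnb1*, *Cdc20*, *Mcm5* and *Pcna* were taken from the lists outside that rule. *Cebpd*, *Trbc1* and *Trbc2* found no match. Ratio code was tested on simulated data. Alternatives were other cycle, UMI and CPM limits, thinning, other scalings and cells of like depth; cells with granule transcripts and no haemoglobin, a 90th percentile limit and 2 libraries alone were added after seeing the data. Figures were drawn with matplotlib 3.10.9 and tables made with pandas 2.3.3, scipy 1.17.1 and numpy 2.4.6 under Python 3.11.15.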

Additional observations from a re-analysis of the deposited data

How the results depend on the processing

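Non-cycling cells were shallower and the old library was deeper, and the depth of single cells limits every count of rule UMIs. The range of 8000 to 12000 UMIs lay below the median of old cycling cells, 13587 UMIs. The sterol, late maturation and interferon medians below cover genes that passed 10 CPM in part through 1 library. Between conditions no paired analysis was possible because each condition is 1 library, and no replicate of a condition could be left out for the same reason. Cycling and non-cycling cells came from the same 3 libraries, but the rule split them on division genes and no test was run on that contrast. Of the main values under all alternatives 106 stayed within their limits and 75 moved, and the cause was not tested. The cycling share in control, young and old was 89.0%, 88.4% and 96.3% at 2 rule UMIs, 72.03%, 73.4% and 84.7% at 5, 84.6%, 85.1% and 89.9% at 3 per 10000, 59.2%, 60.9% and 62.7% when thinned to 3000 and 75.04%, 76.6% and 78.0% when thinned to 5000. Genes higher and lower in cycling cells, 326 and 23, became 766 and 78 at 1.5 times, 127 and 11 at 50 CPM, and 192 and 0 at 8000 to 12000 UMIs, and 64 were lower with CPM taken outside granule and *S100a8*/*S100a9* genes. Without the young library they were 405 and 27. Higher and lower counts for old over young, old over control and control over young were 106 and 141, 85 and 38, and 25 and 105 at 2 times, and 151 and 81, 116 and 49, and 40 and 48 at 50 CPM.

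Taking CPM outside granule genes moved the median of all genes by -0.14, -0.11 and -0.02 in those 3 comparisons, and the lower counts became 1128, 722 and 323. Unscaled UMIs per cell moved it by 0.39, 0.43 and -0.04, and gave 1504 higher and 142 lower for old over young (309 and 420 in CPM) and 1694 and 32 for old over control (284 and 260). At 8000 to 12000 UMIs 400 genes were lower in old over control. List medians, given for old over young and then old over control, moved as follows. Outside granule genes replication was -0.18 and -0.016, mitosis -0.15 and -0.048, late maturation 0.23 and 0.61, glycolysis 0.17 in the first and interferon 0.011 in the second. Unscaled they were 0.35 and 0.53 for replication, 0.38 and 0.50 for mitosis, 0.75 and 1.16 for late maturation, 1.41 and 1.13 for sterol, 0.69 and 0.87 for glycolysis, 0.12 and -0.081 for ribosome biogenesis and -3.47 and 0.56 for interferon. At 8000 to 12000 UMIs they were -0.43 and -0.22 for replication, -0.19 and -0.19 for mitosis, 0.93 and 1.07 for late maturation, 0.21 and 0.22 for glycolysis, -0.59 and -0.81 for ribosome biogenesis, and -3.37 for interferon in old over young.

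Of the named genes 5 values changed sign. In cells of 8000 to 12000 UMIs, cycling over non-cycling became 0.78 for *Irf8* in young and 3.20, 3.78 and 3.36 for *Hbb-bs*, *Hba-a1* and *Hba-a2* in control. With granule transcripts and no haemoglobin, *Hba-a1* in young became 0.074. Another 72 moved and 995 stayed within 1.5 times.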
